A study of Caenorhabditis elegans with 8 samples.

Results

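To ask which tissues, processes and gene families differ between embryos and larvae, mRNA of Caenorhabditis elegans strain VC199 was compared between 4 larvae libraries and 4 embryo libraries over all genes of the deposited count table. Every library came from animals with the ok434 deletion of sir-2.1 on chromosome IV, a histone deacetylase gene, and no wild-type library was analysed, so what follows describes the stages of a sir-2.1 mutant. Embryos of mixed stages came from adults dissolved in bleach, and the larvae had hatched overnight without food and then grown for 24 hours on plates. The larvae are labelled L3, and the study's methods give L2 to L3. Of 20389 genes, 13571 had enough counts to be tested. Genes were described in 56 lists (tissues, processes and families known from textbook biology), chosen with earlier results of these data known. The lists held 5040 different genes, 3048 of them tested, and a gene could be in more than 1 list. Collagens, histones, cytosolic ribosomal proteins and the balance of X and autosomes were left aside. The labels do not say whether replicates were separate cultures, so p-values measure the spread between these libraries. Library titles begin with SEA for embryos and with MK for larvae, so stage and title prefix cannot be told apart. In embryo replicate 1 and larvae replicate 2 the title joins a pair of identifiers. The labels do not say what the prefixes or the joined identifiers stand for.

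During embryogenesis the fertilised C. elegans egg runs through rapid divisions on maternal mRNA, turns on the transcription factors that divide the embryo into lineages, and then builds an epidermis, muscles, a gut and a nervous system before hatching. A larva has fewer dividing cells in its soma, feeds on bacteria, moves, senses its surroundings and sheds its cuticle at each molt. Its germ line proliferates through the larval stages. The enzymes of digestion, the peptides of neuronal signalling and the filaments of contracting muscle are therefore classical features of the feeding larva, and the cell cycle and maternal regulators those of the embryo.

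The libraries held 13687095 to 31292935 gene counts. Levels are given in CPM (counts scaled to a common library size) on library sizes scaled by the trimmed mean of M values (TMM), in the order of replicates 1 to 4. In such bulk samples, fewer cells of a type and less RNA per cell cannot be told apart. The labelled stages were checked against marker genes. Summed early-embryo markers were 180 to 491 CPM in embryos and 10.4 to 17 CPM in larvae, and body-wall muscle markers were 2719 to 3470 CPM and 21240 to 30910 CPM, respectively. Sums of pharyngeal muscle and intestine markers also separated the stages, whereas those of neurons, epidermis and germ line overlapped. The overlapping sums in embryos and larvae were 312.9 to 439.5 and 365.4 to 423.2 CPM for neurons. They were 1225 to 1623 and 1090 to 2011 CPM for epidermis, and 104.7 to 179.6 and 133.5 to 222.2 CPM for germ line. Adult markers, mainly vitellogenins, were at 0.999 to 211 CPM in embryos and 0.800 to 86.1 CPM in larvae, with the highest values in embryo replicate 2 and larvae replicate 1. Sperm markers did not exceed 1.90 CPM in any library. sir-2.1 itself was at 59.1, 70.1, 68.3 and 67.7 CPM in embryos and 48.9, 51.8, 46.3 and 48.0 CPM in larvae, from reads that can lie outside the deleted part. Replicate 1 stood apart in both stages: embryo replicate 1 had the lowest early-embryo marker sum, and larvae replicate 1 the highest levels of many molting genes. The table lists 1385 genes at 0 counts in every library, and 88 of them had a mean of at least 10 in the deposited TPM (abundance per transcript length) in a stage, 10 of them list members such as hlh-1, gpd-2 and hsp-16.1. These genes are listed at 0 and were not tested.

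With edgeR's quasi-likelihood test and Benjamini-Hochberg adjustment, 5004 genes (36.9% of those tested) were called higher in larvae and 5054 (37.2%) lower at an adjusted p under 0.05. The split rests on the scaling: with library totals in place of TMM factors, 3683 genes were higher and 6607 lower, and the median log2 fold change over the tested genes shifted from -0.03 to -0.53. What follows is relative to the TMM scaling. The 2 stages did not overlap in 9198 of the 10058 called genes, and in 69.0% of all genes tested. Fold changes of 4 or more were fitted for 2295 genes called higher and 1652 called lower. Because so many genes were called, each list is read against 36.9% and 37.2%. Members that failed the filter on low counts were not tested, so the counts given for a list cover its tested members and do not describe the rest. Members near 0 counts in either stage pass that filter only through the other stage, which fixes the direction of any call.

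**Figure D1:**
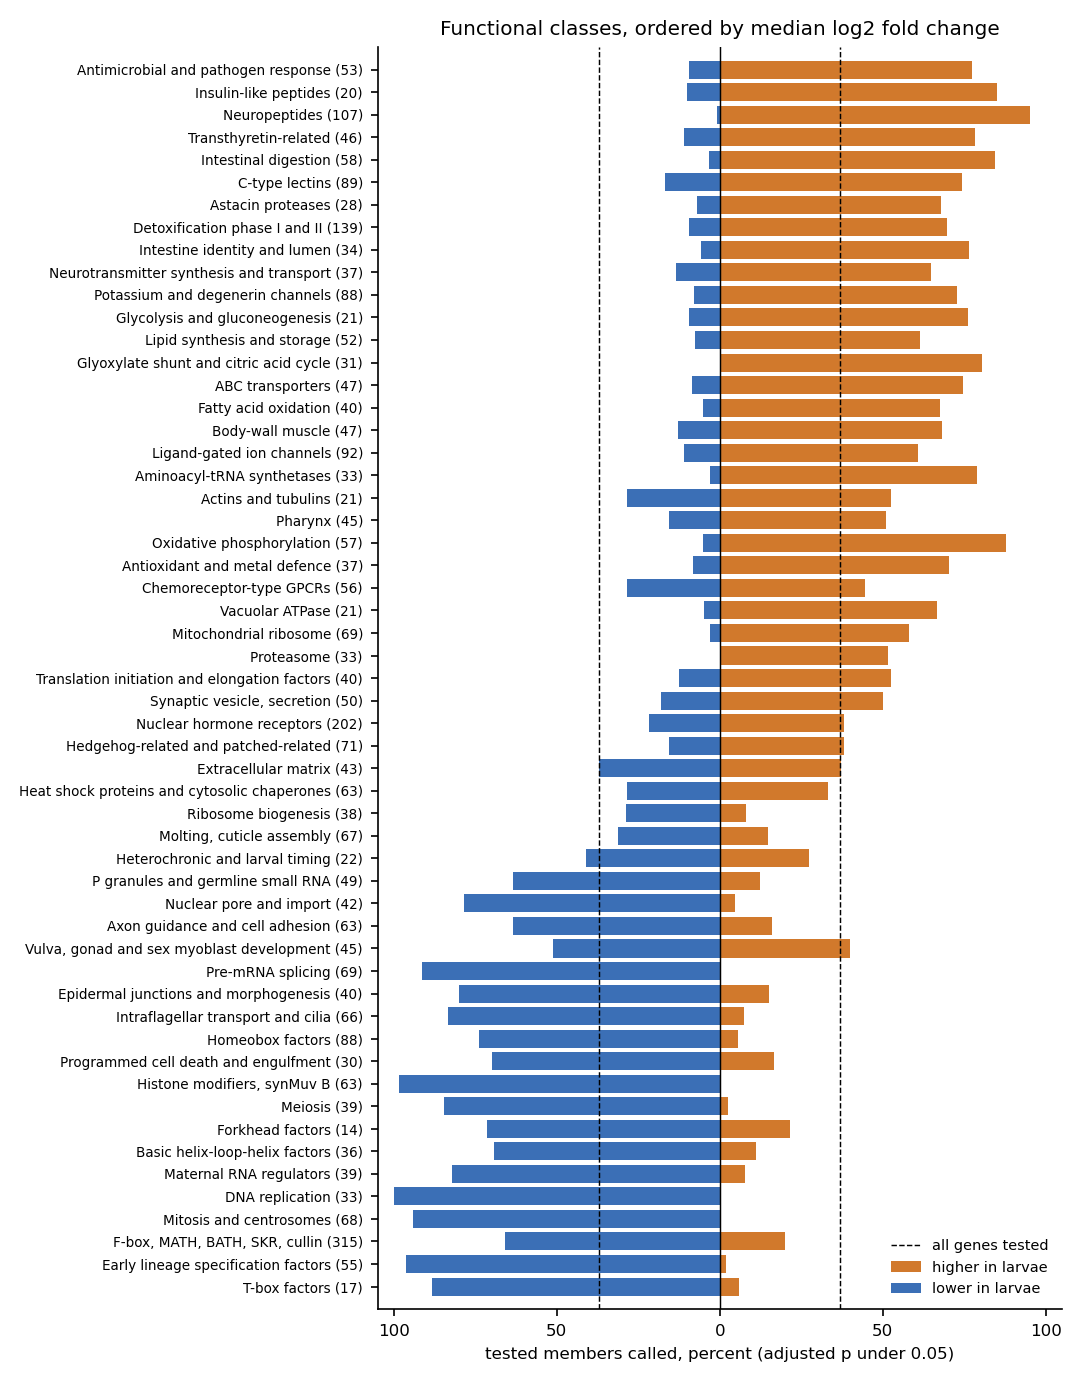
Percent of tested members of each list called higher (right) or lower (left) in larvae than in embryos, with dashed lines at the shares of all tested genes, 36.9% and 37.2%. DNA replication, splicing and chromatin lists lie wholly on the lower side, and peptides, digestion and the citric acid cycle lie mostly on the higher side.

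DNA replication genes were lower in larvae as a group. Of 34 listed genes, 33 were tested and 33 fell, with a median log2 fold change of -2.08. Embryos spent 0.659 ± 0.124% of their gene counts on them and larvae 0.0991 ± 0.0146% (SD, n = 4 each). mcm-7, a subunit of the replicative helicase, was at 529, 1000.4, 782 and 776 CPM in embryos and 56.3, 69.6, 76.6 and 51.1 CPM in larvae. The stages lay far apart, and the log2 fold change was -3.61 ± 0.23 (SE, adjusted p = 1.02e-07). pcn-1, the sliding clamp PCNA, fell by 9.54-fold, and cdt-1, which licenses origins, by 10.5-fold. rnr-1, the large subunit of ribonucleotide reductase, fell by 2.97-fold.

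Mitotic and centrosomal genes moved the same way. Of 68 tested, 64 fell and 0 rose, and their share of counts was 1.12 ± 0.156% in embryos and 0.179 ± 0.0208% in larvae (SD, n = 4 each), or 0.670 ± 0.0961% and 0.0669 ± 0.00669% of the deposited TPM. cyb-3, a B-type cyclin, was at 1332, 2237, 2392 and 1655 CPM in embryos and 54.8, 62.3, 61.4 and 51 CPM in larvae. Embryo replicate 1 was the lowest of its stage and still far above every larvae library (log2 fold change -5.05 ± 0.24 (SE), adjusted p = 1.66e-08). cyb-1 fell by 25.9-fold, and the kinases cdk-1 and air-2, which drive mitotic entry and chromosome segregation, by 5.57-fold and 7-fold. spd-5, the scaffold of the pericentriolar material, fell by 1.72-fold.

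**Figure D2:**
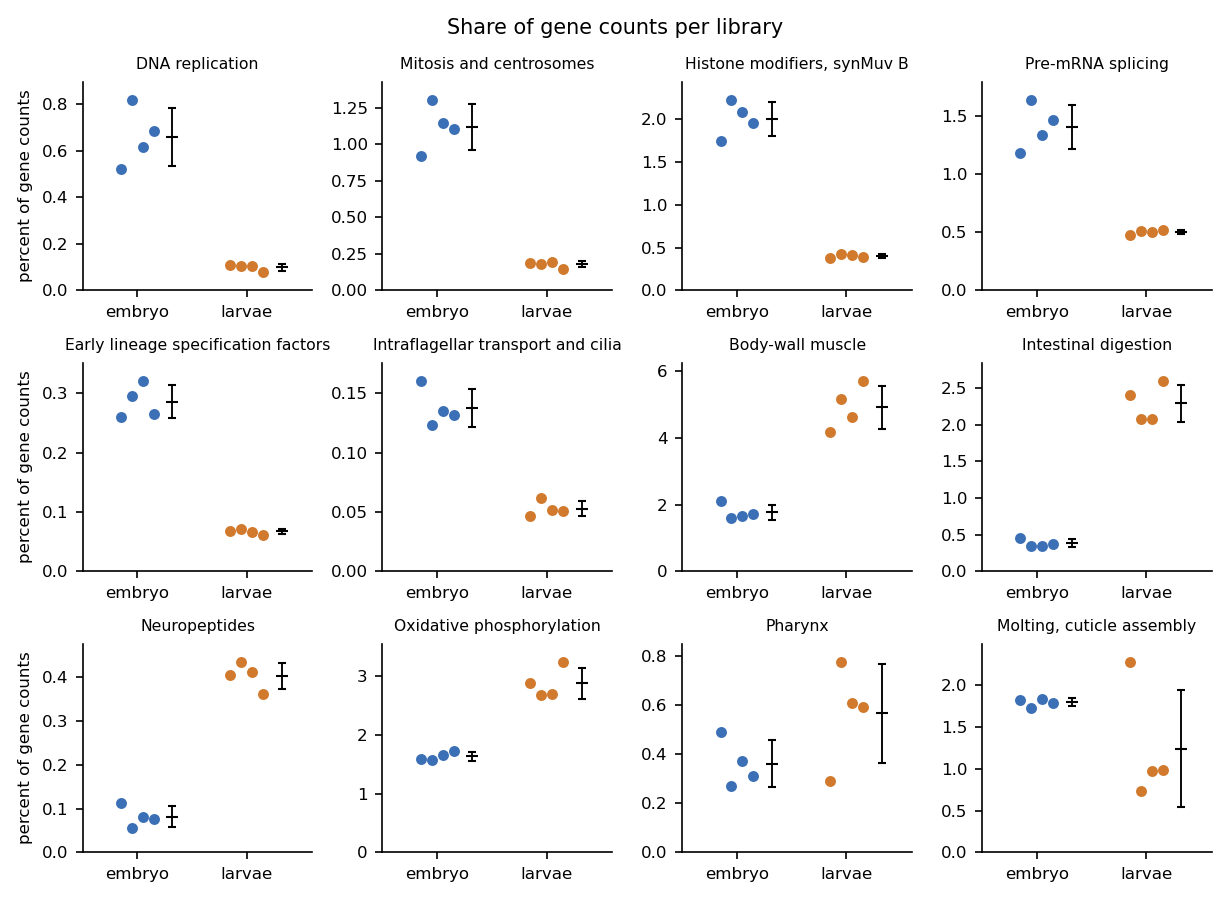
Share of all gene counts taken by 12 lists in each library (points), with the mean and SD of the 4 libraries of each stage. DNA replication took 0.659% of gene counts in embryos and 0.0991% in larvae, digestion took 0.382% and 2.29%, and replicate 1 of larvae stands apart for molting genes.

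Regulators of chromatin fell almost without exception. Of 63 tested genes, 62 fell and 0 rose, and the list's share of counts was 2 ± 0.201% in embryos and 0.403 ± 0.0211% in larvae (SD, n = 4 each), or 1.77 ± 0.262% and 0.182 ± 0.0215% of the deposited TPM. htz-1, the histone variant of the H2A.Z type, was at 1378, 2025, 2507 and 1906 CPM in embryos and 165, 208, 190.0 and 180.1 CPM in larvae. These levels did not overlap (log2 fold change -3.40 ± 0.21 (SE), adjusted p = 7.75e-08). set-1, which methylates histone H4, fell by 10.02-fold, and lin-35, the retinoblastoma homologue of the synMuv B pathway, by 4.42-fold. Of the germline chromatin factors, mes-4, which marks germline genes with methylated histone H3, fell by 5.40-fold and mes-2, the Polycomb methyltransferase, by 1.75-fold.

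Genes of mRNA synthesis and processing were also lower in larvae. Of 69 splicing genes tested, 63 fell and 0 rose, with smaller steps than replication genes (median log2 fold change -1.02). rsp-3, an SR splicing factor, was at 398, 856, 804 and 700.4 CPM in embryos and 198, 244, 234 and 264 CPM in larvae, and fell by 2.94-fold (adjusted p = 6.84e-05). prp-8, the core of the spliceosome, fell by 1.51-fold. All 17 tested taf genes (subunits of the general factor TFIID) fell, as did 18 of 20 mdt genes (Mediator) and all 11 tested rpb genes (RNA polymerase II). Nuclear pore and import genes fell in 33 of 42 cases and rose in 2. Here npp-1 fell by 4.35-fold and npp-12, a nuclear pore membrane protein, was 1.63-fold higher (adjusted p = 0.0016), a call lost with library totals. npp-26 had 315, 206, 146 and 173 counts in embryos and 2, 1, 0 and 2 in larvae. Of the lists with basic nuclear roles, ribosome biogenesis was an exception: 11 of 38 tested genes fell and 3 rose, and fib-1, the nucleolar methyltransferase fibrillarin, was at 411 ± 134 CPM in embryos and 489.9 ± 83.0 CPM in larvae (SD, n = 4; adjusted p = 0.339). With library totals, 23 of these genes were lower.

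Most maternal regulators of the oocyte and early embryo fell. Of 39 tested, 32 fell and 3 rose. pos-1, a zinc-finger protein that controls translation of maternal mRNA, was at 256, 402, 409 and 414 CPM in embryos and 6.43, 3.35, 3.8 and 2.01 CPM in larvae. Embryo replicate 1 held the lowest level of the stage, and every embryo library lay above every larvae library (log2 fold change -6.59 ± 0.35 (SE), adjusted p = 3.45e-08). mex-5 and mex-6, which polarise the zygote, fell by 31.3-fold and 61.8-fold, and oma-1, needed for oocyte maturation, by 44.7-fold. pie-1, the repressor of transcription in germline blastomeres, fell by 12.8-fold. In the other direction went lin-41, which also acts in larval timing, at 15.5, 12.56, 19.1 and 18.7 CPM in embryos and 207, 254, 262 and 247 CPM in larvae, and fbf-2, a PUF protein that maintains germline stem cells, at 4.69-fold the embryo level.

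Germline genes were mixed. In the P granule and small RNA list, 31 of 49 tested genes fell and 6 rose, and in the meiosis list 33 of 39 fell and 1 rose. nos-2, a Nanos homologue of the primordial germ cells, was at 32.7, 38.7, 82.6 and 43.6 CPM in embryos and 0.514, 0.150, 0 and 0.0630 CPM in larvae, and meg-1, an embryonic P granule gene, fell by 202-fold. By contrast glh-1, a Vasa-type helicase that P granules hold at all stages, rose from 26.8 ± 6.14 CPM to 93.5 ± 21.5 CPM (SD, n = 4; adjusted p = 1.38e-05), and pgl-1, another constitutive component, was at 29.8, 57.1, 41.3 and 50.05 CPM in embryos and 70.7, 45.8, 81.1 and 50.2 CPM in larvae with overlapping stages (adjusted p = 0.0898; without larvae replicate 2 it was called higher, log2 fold change 0.60). ppw-2, an Argonaute, was 6.12-fold higher in larvae. Among meiotic genes, htp-3 and him-3 of the chromosome axis fell by 3.28-fold and 2.97-fold and syp-1 of the synaptonemal complex by 3.91-fold, whereas the meiotic cohesin rec-8 overlapped between stages (adjusted p = 0.386) and cra-1, a regulator of synaptonemal complex assembly, rose 3.28-fold.

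The early lineage list holds mainly transcription factors that specify embryonic lineages, beside 17 tested sdz genes, transcripts of the zygote that depend on the factor SKN-1. It had the lowest median after T-box factors, most of which it also holds. Of 55 tested members, 53 fell and 1 rose (median -6.56, or -4.71 with the 10 members that had no count in any larvae library set to their bound, the fold against a floor of 3 counts in each library). Many were at or near 0 counts in larvae, so their fitted values are not bounds. end-1, a GATA factor that specifies the endoderm, had 162 to 292 counts in the embryo libraries and 2, 2, 1 and 0 in larvae. end-3, its partner, had 67, 61, 49 and 44 and 1, 0, 0 and 1. tbx-37, a T-box factor of the anterior lineage, had 93 to 193 counts in embryos and 0 in every larvae library, at least 26.2-fold lower against that floor. sdz-24 was the highest member, at 1.79 ± 0.529 CPM in embryos and 45.2 ± 30.2 CPM in larvae (SD, n = 4).

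Whole families of transcription factors also lay on the lower side. Most T-box genes, and some of the homeobox and basic helix-loop-helix genes, are also in the early lineage list, so these counts are not separate results. Of tested members, 15 of 17 T-box, 65 of 88 homeobox, 25 of 36 basic helix-loop-helix and 10 of 14 forkhead genes fell. cnd-1, a NeuroD homologue, was at 31.1, 42.4, 51.7 and 33 CPM in embryos and 0.429, 1.4, 1.56 and 1 CPM in larvae. lin-32, an atonal homologue that starts neuronal fates, fell by 7.73-fold, and unc-86, a POU factor of neuronal lineages, by 2.78-fold. lin-39, the Hox gene of the midbody, fell by 1.79-fold, and hnd-1, a factor of mesodermal precursors, by 268-fold, or 508-fold without larvae replicate 2, from 969, 842, 437 and 587 counts in embryos to 1, 4, 1 and 0 in larvae. A few members rose: ceh-23, a homeobox gene of sensory neurons and other cells, by 18.5-fold, hlh-11 by 26.8-fold, mab-9 by 2.81-fold and lin-31, a vulval forkhead factor, by 4.29-fold. daf-16, the forkhead factor under insulin signalling, was 1.57-fold higher (adjusted p = 0.011), with overlapping stages and with the call lost under library totals.

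Nuclear hormone receptors, which form the largest transcription factor family of the worm, had calls on both sides. Of 283 genes, 202 were tested, 77 were higher (38.1%) and 44 lower (21.8%), against 36.9% and 37.2% of all genes tested. With library totals their median changed sign, from 0.25 to -0.26. daf-12, the steroid receptor of dauer and stage timing, was at 54.8, 27.9, 52.8 and 29.99 CPM in embryos and 196, 253, 146 and 382 CPM in larvae. nhr-25, needed for epidermal cells, fell by 2.33-fold and nhr-2, an early embryonic receptor, by 209-fold.

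The F-box, MATH, BATH, SKR and cullin list, parts of ubiquitin ligases, had 208 of 315 tested genes lower and 63 higher. The decrease lay in particular families. All 100 tested fbxb genes fell (median -7.36, or -6.55 with members at 0 in larvae set to their bound), and of 37 tested fbxc genes 31 fell and 0 rose. In the fbxa family, 37 of 91 rose and 26 fell, against 36.9% and 37.2% of all genes tested. Summed over the 110 fbxb genes of the table, embryos 1 to 4 held 30191, 25463, 16149 and 19412 counts, and no larvae library held more than 254. In larvae, 88 of the 110 had at most 3 counts in each library and 25 had none in any. Such genes can enter a test only through their embryo counts. fbxb-13 had 348, 336, 185 and 282 counts in the embryo libraries and 0 in all larvae libraries, at least 56.4-fold lower. Chromosome II carried 62 of the 110 fbxb genes. Members of this family are close paralogues, so the division of reads among single fbxb genes is uncertain. The Skp1 relatives went along: 16 of 19 tested skr genes fell and 3 rose, and skr-15 had 1749, 2110, 930 and 1604 counts in embryos and 3, 2, 0 and 2 in larvae. skr-1 itself, the general Skp1, fell by 1.68-fold.

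Genes of epidermal morphogenesis were lower in larvae. Of 40 tested, 32 fell and 6 rose. dlg-1, a scaffold of apical junctions, was at 791, 801, 994 and 758 CPM in embryos and 311, 281, 304 and 338 CPM in larvae (log2 fold change -1.44 ± 0.15 (SE), adjusted p = 4.76e-06). hmr-1, the worm cadherin, fell by 2.51-fold and ajm-1, another junction protein, by 1.74-fold. Intermediate filaments went both ways: ifa-3 fell by 103.1-fold and its partner ifb-1 rose 2.57-fold. Basement membrane and other matrix genes had shares of calls near those of all genes tested. Of 43 tested, 16 were higher and 16 lower (37.2% each, against 36.9% and 37.2%). With library totals their median was -0.35 in place of 0.14. In that list emb-9, a type IV collagen, rose from 1188, 1309, 1241 and 1267 CPM in embryos to 1907, 2507, 2421 and 2437 CPM in larvae, lam-3, a laminin alpha chain, fell by 12.4-fold, and the metalloproteases gon-1 and adt-2 rose 2.12-fold and 21.9-fold.

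Programmed cell death genes fell in 21 of 30 tested cases and rose in 5. egl-1, the trigger of somatic cell death, was at 9.31, 9.44, 15.1 and 8.81 CPM in embryos and 1.63, 1.90, 1.15 and 0.564 CPM in larvae, and ced-3, the executing caspase, at 54.1, 72.6, 99.4 and 73.7 CPM and 11.6, 9.10, 14.3 and 6.58 CPM. Neither gene overlapped between stages. ces-2, a bZIP regulator of neuronal death, fell by 314-fold. cps-6, a mitochondrial endonuclease, rose 5.12-fold.

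Among lists with roles in the nervous system, most axon guidance and cilia genes tested fell, whereas most neuropeptide and transmitter genes tested rose. The axon guidance list also holds matrix and adhesion genes such as emb-9 and hmr-1. It shares members with the epidermal and matrix lists, so its counts are not specific to neurons. Axon guidance and adhesion genes fell in 40 of 63 tested cases and rose in 10, and cilia and intraflagellar transport genes in 55 and 5 of 66. unc-40, the netrin receptor, was at 258, 318, 311 and 289.6 CPM in embryos and 125, 118.9, 130.4 and 120.5 CPM in larvae and fell by 2.38-fold, and its ligand unc-6 fell by 1.66-fold. che-2, an intraflagellar transport protein, fell by 4.03-fold. dyf-7, which anchors sensory dendrites as they grow, was at 65.0, 66.8, 74.2 and 67.8 CPM in embryos and 1.46, 1.70, 1.76 and 2.07 CPM in larvae (log2 fold change -5.28 ± 0.18 (SE), adjusted p = 5.31e-09). xbx-5 and xbx-9, in the same list, rose 15.5-fold and 8.44-fold. Of the 55 cilia genes that fell, 30 fell by more than 2-fold when that size was tested.

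FMRFamide-like and neuropeptide-like genes formed the list with the greatest share of members called higher. Its nlp members include epidermal antimicrobial peptides such as nlp-29, also in the antimicrobial list, so the list is not purely neuronal. Of the tested genes 102 rose, 1 fell and 4 were called in neither direction, while 9 further genes were not tested, with a median log2 fold change of 3.09. All 30 tested flp genes rose. The whole list made up 0.0815 ± 0.0237% in embryos and 0.402 ± 0.0297% in larvae (SD, n = 4 each). flp-14, an FMRFamide-like peptide gene, was at 3.29, 1.91, 0.948 and 2.38 CPM in embryos and 82.7, 103.3, 93.6 and 102 CPM in larvae, a gap of 5.44 ± 0.31 on the log2 scale (SE, adjusted p = 5.2e-08). flp-1 rose 8.80-fold, and nlp-60 fell by 2.97-fold. In the synaptic and secretion list, the greatest increases were those of 2 genes that process peptides. egl-3, the proprotein convertase, was at 80.6, 42.4, 62.6 and 48.8 CPM in embryos and 762, 823, 955 and 896 CPM in larvae, and egl-21, the carboxypeptidase that trims the cut peptides, rose 13.5-fold. Of insulin-like peptides, 17 of 20 tested rose and 2 fell, among 40 in the table. daf-28, an insulin that acts against dauer entry, was 69.7-fold higher. ins-33 had 2, 1, 0 and 0 counts in embryos and 365, 327, 280 and 757 in larvae, and ins-2 went the other way with 706, 461, 413 and 370 and 1, 2, 0 and 0. Peptide receptors of the npr and frpr families rose in 32 of 41 and 13 of 15 tested cases.

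Synaptic vesicle and secretion genes were less shifted. Of 50 tested, 25 rose and 9 fell, and with library totals 14 were higher and 19 lower and the median was -0.11 in place of 0.39. rab-3, the vesicle GTPase, was at 46.2, 23.5, 36.8 and 29.3 CPM in embryos and 44.6, 69.3, 52.7 and 58.5 CPM in larvae, with overlapping stages (adjusted p = 0.01), and lost its call with library totals. snb-1, synaptobrevin, was at 184 ± 27.7 CPM in embryos and 164 ± 11.1 CPM in larvae (SD, n = 4; adjusted p = 0.349). unc-64, syntaxin, rose 2.05-fold, and unc-119, a neuronal trafficking gene, fell by 3.24-fold. Transmitter genes rose in 24 of 37 tested cases and fell in 5. unc-25, which makes GABA, rose 6.32-fold, cha-1, which makes acetylcholine, 3.67-fold, and eat-4, the vesicular glutamate transporter, 3.65-fold. glt-1, a plasma membrane glutamate transporter, was at 14.4, 7.13, 9.37 and 6.16 CPM in embryos and 261, 285, 264 and 301 CPM in larvae, well apart.

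Most ion channel genes tested rose. Ligand-gated channels rose in 56 and fell in 10 of 92 tested cases (39 and 21 with library totals), and potassium and degenerin channels in 64 and 7 of 88. mec-4, the touch receptor channel subunit, was at 3.73, 1.5, 2.17 and 1.53 CPM in embryos and 6.26, 8.30, 7.47 and 7.71 CPM in larvae (adjusted p = 0.000369). glr-1, a glutamate receptor, fell by 1.85-fold. Of 1336 chemoreceptor genes in the table, only 56 had the counts to be tested, so the list says little about the family. Of these, 25 rose (44.6%) and 16 fell (28.6%), against 36.9% and 37.2% of all genes tested. odr-10, the diacetyl receptor of one pair of olfactory neurons, had 0, 1, 1 and 1 counts in embryos and 36, 71, 36 and 42 in larvae, and str-173 had 207, 72, 72 and 95 in embryos and 0 in every larvae library, at least 20.3-fold lower.

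Most muscle genes tested rose. Of 47 body-wall muscle genes tested, 32 rose and 6 fell (27 and 13 with library totals), and the list's share of counts was 2.1%, 1.6%, 1.65% and 1.73% in embryos and 4.17%, 5.16%, 4.62% and 5.68% in larvae. unc-54, the main body-wall myosin heavy chain, was at 1493, 1181, 1218 and 1186 CPM in embryos and 13787, 14907, 15415 and 19677 CPM in larvae. Embryo replicate 1 held the highest level of its stage, far below the lowest larvae library (log2 fold change 3.65 ± 0.20 (SE), adjusted p = 3.67e-08). The paramyosin gene unc-15 rose 7.05-fold, tropomyosin, lev-11, 5.21-fold, and the minor myosin myo-3 3.18-fold. tnt-2, a troponin T, showed the greatest increase of the list, 51.1-fold. Among the members that fell were unc-120, a transcription factor of muscle fate, by 3.03-fold and hsp-12.1, a small heat shock protein, by 5.95-fold. Actin act-1 rose 4.55-fold. Of the tubulins, tba-1 fell by 1.78-fold, tbb-2 was at 2084 ± 542 CPM and 1955 ± 218.1 CPM (SD, n = 4; adjusted p = 0.707), and mec-12, an alpha-tubulin of touch neurons, rose 4.41-fold. Tubulin paralogues are alike in sequence, and the division of short reads among them is uncertain.

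Pharyngeal genes rose in 23 of 45 tested cases and fell in 7. The list's share of counts was 0.489%, 0.270%, 0.372% and 0.311% in embryos. In larvae it was 0.292%, 0.772%, 0.607% and 0.591%, lowest in replicate 1, and the stages overlapped. Of the deposited TPM it was 0.331 ± 0.0877% in embryos and 0.333 ± 0.137% in larvae (SD, n = 4 each). myo-2, a pharyngeal myosin, was at 334, 187, 221 and 205 CPM in embryos and 827, 1770.2, 1563 and 2014 CPM in larvae (adjusted p = 5.13e-06), and myo-1 rose 7.65-fold. phat-3, a gland protein, rose 228-fold, while phat-1 was at 49.1, 26.7, 51.1 and 31.5 CPM in embryos and 11.8, 37.1, 49 and 12.7 CPM in larvae (adjusted p = 0.288). Among the members that fell were pha-4, the FoxA factor of pharyngeal fate, by 2.96-fold, pha-2 by 7.36-fold and hlh-6, a gland factor, by 4.86-fold.

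**Figure D3:**
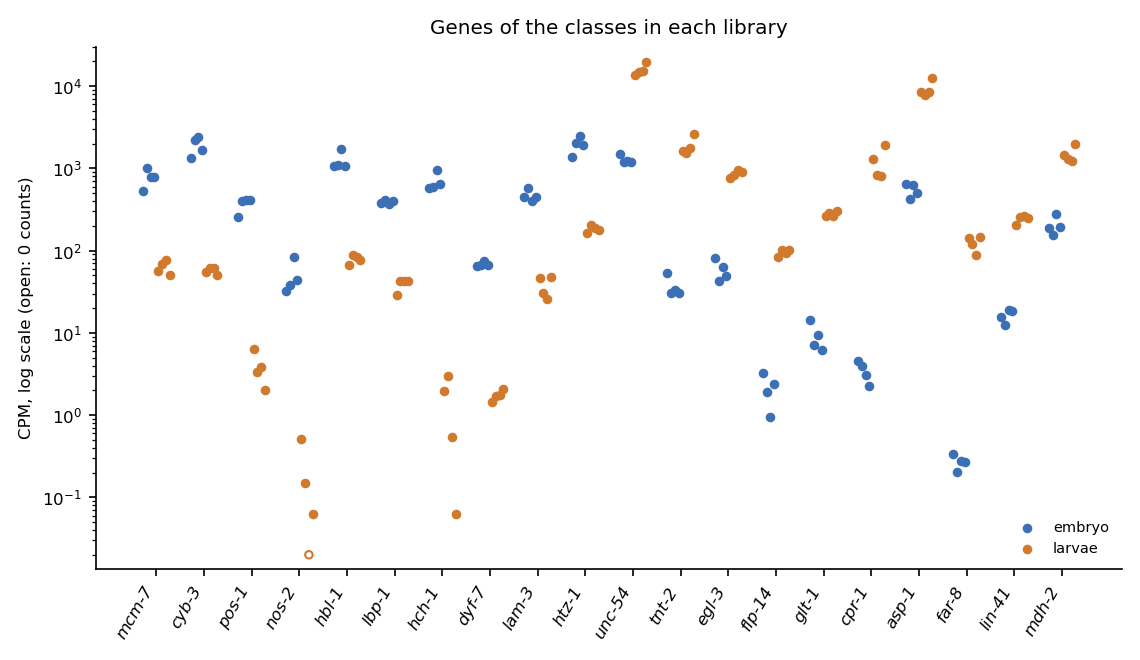
CPM of 20 genes in each of the 4 embryo and 4 larvae libraries on a log axis, with open points for 0 counts. The groups of points do not overlap for mcm-7, cyb-3, pos-1, unc-54, flp-14 and cpr-1.

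Most intestinal genes tested rose. Of 34 identity and lumen genes tested, 26 rose and 2 fell. act-5, the actin of microvilli, was at 471, 332, 426 and 384 CPM in embryos and 1779, 1681, 1854 and 3175 CPM in larvae (log2 fold change 2.40 ± 0.23 (SE), adjusted p = 2.51e-06). ges-1, a gut esterase, rose 6.90-fold and pept-1, the peptide transporter, 4.27-fold. The metallothionein genes mtl-1 and mtl-2 rose 38.3-fold and 133-fold. The GATA factor elt-2, which keeps gut identity, was at 25.5, 27.7, 28.2 and 28.4 CPM in embryos and 18.3, 25.1, 25.7 and 23.4 CPM in larvae, with overlapping stages (adjusted p = 0.18), and elt-7, its partner, fell by 1.61-fold.

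Most digestive hydrolases tested rose. Of 58 tested, 49 rose and 2 fell (median 3.0), and their share of counts was 0.382 ± 0.0547% in embryos and 2.29 ± 0.251% in larvae (SD, n = 4 each). cpr-1, a cathepsin B-like cysteine protease, was at 4.56, 3.97, 3.07 and 2.25 CPM in embryos and 1289.5, 841, 818 and 1939 CPM in larvae. All larvae libraries lay above all embryo libraries (log2 fold change 8.45 ± 0.41 (SE), adjusted p = 1.95e-08). The aspartyl proteases asp-1 and asp-3 rose 16.9-fold and 12.17-fold, and all 11 tested pho genes (acid phosphatases) rose. lipl-3, a lysosomal lipase, had 0 counts in every embryo library and 27, 83, 66 and 97 in larvae, at least 34.3-fold higher. crn-6, a nuclease related to DNase II, fell by 3.11-fold.

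Most defence genes tested rose as well. In the antimicrobial list, 41 of 53 tested genes rose and 5 fell, among 79 in the table. lys-1, a lysozyme, was at 31.4, 19, 21.4 and 20.9 CPM in embryos and 314, 408, 265.9 and 552 CPM in larvae, and lys-7, another, was 406-fold higher in larvae. spp-1, a saposin-like peptide, rose 45.1-fold and nlp-29, an epidermal antimicrobial peptide, 8.80-fold. All 10 tested fipr genes rose. C-type lectins rose in 66 of 89 tested cases and fell in 15, while 254 are in the table. clec-266 fell by 470.2-fold, and clec-47 had 1, 0, 1 and 0 counts in embryos and 170, 570, 94 and 50 in larvae. Transthyretin-related genes, of which 36 of 46 rose and 5 fell, held both extremes too: ttr-22 was at 0 counts in every embryo library and at 28, 54, 24 and 33 in larvae, at least 17.7-fold higher, and ttr-50 fell by 443-fold. ttr-52, which bridges dying cells to the cells that engulf them, fell by 15.5-fold.

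Energy metabolism was higher in larvae. Citric acid cycle and glyoxylate genes rose in 25 of 31 tested cases and fell in 0, glycolytic genes in 16 and 2 of 21, and oxidative phosphorylation genes in 50 and 3 of 57. mdh-2, malate dehydrogenase, was at 190.3, 156, 280.0 and 193 CPM in embryos and 1447, 1313, 1223 and 1966 CPM in larvae. These did not overlap (log2 fold change 2.86 ± 0.23 (SE), adjusted p = 5.52e-07). atp-2, the beta subunit of ATP synthase, rose 3.45-fold, and isp-1, the Rieske protein of complex III, 2.18-fold. enol-1, enolase, rose 5.56-fold and pck-1, which leads into gluconeogenesis, 1.95-fold (adjusted p = 0.00936), with overlapping stages and no call with library totals. The oxidative phosphorylation count rests on the scaling, since with library totals 28 were higher and 4 lower, and 18 rose by more than 2-fold when that size was tested. Its share of counts was 1.63 ± 0.0690% in embryos and 2.87 ± 0.255% in larvae (SD, n = 4 each), or 2.69 ± 0.0721% and 3.06 ± 0.237% of the deposited TPM.

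Some paralogues of the same step are given side by side, and pairs moved together as well as apart. Both genes rose in the pairs pyk-1 and pyk-2 (log2 fold changes 2.31 and 1.96), aldo-1 and aldo-2 (1.95 and 0.995) and pck-1 and pck-2 (0.96 and 1.15). asb-2, a subunit b of ATP synthase, rose with a log2 fold change of 2.03 ± 0.16 (SE) and asb-1 fell with -0.45 ± 0.19 (SE), and of the subunit g genes asg-2 rose with 1.8 ± 0.20 (SE) and asg-1 was at 113 ± 19 CPM in embryos and 109 ± 14.1 CPM in larvae (SD, n = 4; adjusted p = 0.784). By the deposited TPM, asg-1 had means of 413 in embryos and 221 in larvae. The difference between paralogues was not tested. gpd-1 and gpd-4, glyceraldehyde-3-phosphate dehydrogenases, fell by 7.51-fold and 4.08-fold. gpd-2, near-identical in sequence to gpd-3, was listed at 0 counts in every library and at 407 ± 33.5 TPM in embryos and 873 ± 109.7 TPM in larvae (SD, n = 4), so the deposited tables differ for this gene and the levels of its family are uncertain.

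Most lipid genes tested rose. In fatty acid oxidation 27 of 40 tested genes rose and 2 fell, and in lipid synthesis and storage 32 of 52 rose and 4 fell. With library totals these counts were 23 and 7 for oxidation and 26 and 14 for synthesis and storage. acdh-1, an acyl-CoA dehydrogenase of propionate handling, was at 205, 212, 126 and 146 CPM in embryos and 1102, 901, 743 and 329 CPM in larvae (adjusted p = 8.95e-05). daf-22 and kat-1, thiolases of peroxisomes and mitochondria, rose 2.65-fold and 5.54-fold. fat-2, a desaturase, rose 9.39-fold. fasn-1, fatty acid synthase, was at 1254, 1414, 1297 and 1331 CPM in embryos and 2718, 1062, 1154 and 1368 CPM in larvae, with overlapping stages (adjusted p = 0.418). The lipid-binding protein genes far-8 and lbp-1 moved in opposite directions, far-8 with 8.76 ± 0.28 and lbp-1 with -3.32 ± 0.17 on the log2 scale (SE).

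Detoxification enzymes rose in 97 tested cases, fell in 13 and were called in neither direction in 29, among 186 cytochrome P450, UDP-glucuronosyltransferase and glutathione transferase genes of the table. By family, 45 of 58 ugt, 33 of 50 cyp and 19 of 31 gst genes rose. gst-4, a well-known reporter of oxidative stress responses, was at 8.21, 3.2, 1.56 and 2.34 CPM in embryos and 6.34, 4.35, 5.84 and 2.88 CPM in larvae, and its stages overlapped (adjusted p = 0.559). Without embryo replicate 1 it was called higher, with a log2 fold change of 1.004. ABC transporters rose in 35 of 47 and fell in 4, and the pgp family, the P-glycoproteins, in 12 of 13. Antioxidant and metal defence genes rose in 26 of 37 tested cases and fell in 3 (17 and 7 with library totals). sod-1, the cytosolic copper and zinc superoxide dismutase, rose 2.02-fold and ctl-2, a peroxisomal catalase, 2.1-fold. Their steps were smaller by mean TPM, from 229.6 in embryos to 258.6 in larvae for sod-1 and from 94.3 to 108 for ctl-2. sod-3, the inducible mitochondrial dismutase, rose 20.2-fold (adjusted p = 0.00025) from 0.122, 0.162, 0.167 and 0.225 CPM in embryos to 1.8, 2.15, 0.747 and 8.96 CPM in larvae. Its embryo libraries held 3 to 5 counts each, and the increase was 9.31-fold without larvae replicate 4. By contrast trx-1, a neuronal thioredoxin, fell by 3.34-fold. Larvae replicate 1 held the most counts of the antioxidant list, 0.320%, 0.289%, 0.289% and 0.287% in larvae replicates 1 to 4. Of 63 heat shock proteins and chaperones tested, 21 were higher (33.3%) and 18 lower (28.6%), against 36.9% and 37.2% of all genes tested. With library totals the counts were 12 and 33. hsp-1, a constitutive Hsp70, rose 3.06-fold and sip-1, a small heat shock protein of embryos, fell by 22.4-fold, while hsp-4, the Hsp70 of the endoplasmic reticulum that marks its stress response, was at 210.1, 308, 241 and 284 CPM and 231.2, 247, 232 and 232 CPM (adjusted p = 0.417). hsp-16.2, an inducible small heat shock gene, was at 4.90, 10.3, 38.6 and 50.6 CPM and 7.54, 13.5, 3.46 and 21.7 CPM (adjusted p = 0.14), and was called lower without embryo replicate 1 (log2 fold change -1.53) and with library totals (-1.64).

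Called genes of protein synthesis and turnover mostly rose, by small steps. Aminoacyl-tRNA synthetases rose in 26 of 33 cases and fell in 1 (median 0.99), translation factors in 21 and 5 of 40, mitochondrial ribosomal proteins in 40 and 2 of 69, proteasome subunits in 17 and 0 of 33 and vacuolar ATPase subunits in 14 and 1 of 21. eef-2, elongation factor 2, was at 1935, 2677, 2213 and 2483 CPM in embryos and 10132, 8849.8, 10165 and 9506 CPM in larvae (log2 fold change 2.05 ± 0.17 (SE), adjusted p = 7.45e-07). gars-1, the glycyl-tRNA synthetase, rose 2.68-fold, and ife-4, a cap-binding protein, fell by 4.42-fold. vha-6, the intestinal subunit of the vacuolar ATPase, rose 6.14-fold, whereas vha-2 was at 1242 ± 427 CPM and 1306 ± 195 CPM (SD, n = 4; adjusted p = 0.783). These lists are sensitive to scaling: with library totals 13 translation factors were higher and 11 lower, 4 proteasome genes higher and 3 lower, 16 mitochondrial ribosomal genes higher and 10 lower, and 7 vacuolar ATPase genes higher and 2 lower.

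Called molting genes lay on both sides, and larvae replicate 1 stood apart. Of 67 tested genes, 10 rose and 21 fell, and 9 rose and 33 fell without larvae replicate 1. The list took 2.27%, 0.727%, 0.973% and 0.989% of counts in larvae replicates 1 to 4, against 1.81%, 1.73%, 1.83% and 1.79% in embryos. mlt-11, a protease inhibitor of the molt, was at 1029.6, 1221, 1372 and 1178 CPM in embryos and 4620.1, 546, 1194 and 1501 CPM in larvae (adjusted p = 0.207). noah-1, an apical matrix protein, was at 1111, 1323, 1130 and 1178 CPM and 2527, 311, 581 and 716 CPM (adjusted p = 0.731). In both genes larvae replicate 1 lay far above the other larvae libraries, and the stages overlapped. Without larvae replicate 1 noah-1 was called lower (log2 fold change -1.15), and without larvae replicate 2 mlt-11 was called higher (1.03). nhr-23, the receptor that drives molting genes, was at 55.5, 59.0, 77.5 and 49.3 CPM and 137, 37.4, 40.06 and 74.3 CPM (adjusted p = 0.536), and mlt-10 at 218.4, 156, 267 and 173 CPM and 287, 163, 301 and 184 CPM (adjusted p = 0.468). mlt-7, a peroxidase that crosslinks cuticle, did rise, 9.90-fold, with separate stages. cut-3, a cuticlin of the first cuticle, fell by 278-fold, or 458-fold without larvae replicate 2.

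**Figure D4:**
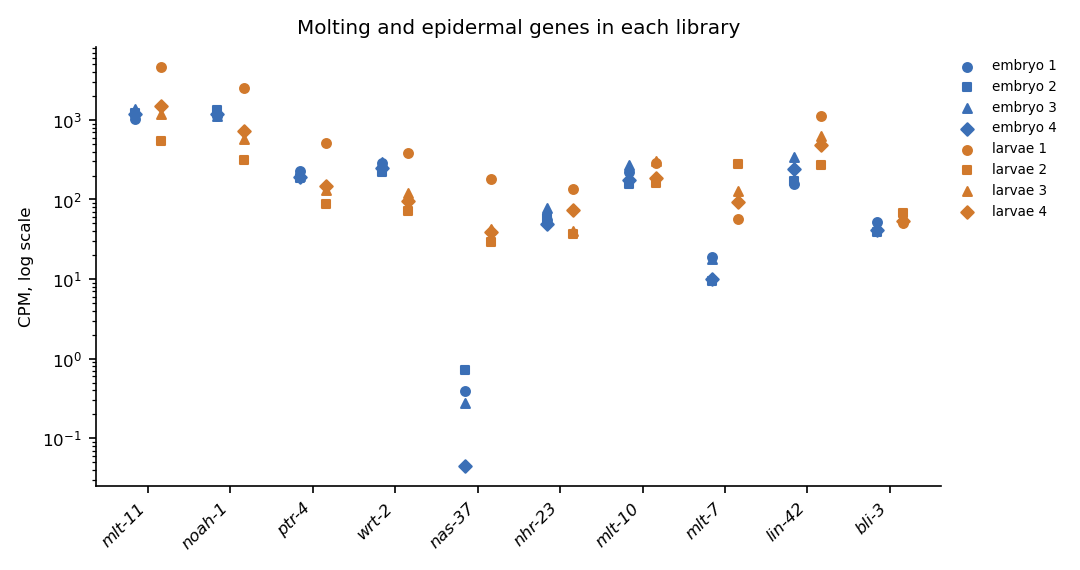
CPM of 10 molting and timing genes in each library, on a log axis. Larvae replicate 1 is the highest larvae library for mlt-11, noah-1, ptr-4, wrt-2 and nas-37, and mlt-7 and mlt-10 do not share this order.

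Astacin proteases rose in 19 of 28 tested cases and fell in 2, while their share of counts was 0.101 ± 0.0169% in embryos and 0.0599 ± 0.0140% in larvae (SD, n = 4 each). These shares did not overlap, and hch-1 took the most counts of the list in embryos. hch-1, the protease that digests the eggshell at hatching, was at 572, 595, 969 and 649.6 CPM in embryos and 1.97, 3, 0.543 and 0.0630 CPM in larvae (log2 fold change -8.93 ± 0.69 (SE), adjusted p = 3.84e-07, or -9.77 without larvae replicate 2). nas-37, a protease needed to shed the old cuticle, was at 0.390, 0.729, 0.279 and 0.0450 CPM in embryos and 181, 29.3, 42 and 39 CPM in larvae, highest in replicate 1, and nas-36, its partner, rose 6.33-fold. Hedgehog-related and patched-related genes, many of which act on the cuticle, were higher in 27 of 71 tested cases and lower in 11, a share of higher calls near that of all genes, and 25 were higher and 21 lower without larvae replicate 1. The median of that list was 0.17, and -0.06 without larvae replicate 1 and -0.32 with library totals. ptr-4 was at 231.1, 188, 197 and 192 CPM and 509.9, 87.2, 129.7 and 148 CPM (adjusted p = 0.826), and wrt-2 at 289.9, 224, 298 and 246 CPM and 388, 72.1, 119.7 and 95.1 CPM (adjusted p = 0.196), both highest among larvae in replicate 1. Without that library their log2 fold changes were -0.74 and -1.47, and both were called lower, as was wrt-2 with library totals (-1.14). ptr-8 and ptr-13 rose 71.3-fold and 118-fold.

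Genes of larval timing had calls on both sides. Of 22 tested, 6 were higher (27.3%) and 9 lower (40.9%), against 36.9% and 37.2% of all genes tested. hbl-1, a zinc-finger factor of early larval fates, was at 1069.6, 1096, 1741 and 1082 CPM in embryos and 67.6, 88.8, 84.4 and 76.3 CPM in larvae, without overlap. lin-28, an RNA-binding protein of early stages, fell by 3.8-fold, and lin-14 was at 237, 111, 135 and 132 CPM and 68.4, 112.4, 132 and 102.6 CPM (adjusted p = 0.0672), and was called lower with library totals (log2 fold change -1.09), DESeq2 (-0.58), no filter beyond 1 count (-0.61), or with embryo replicate 2 (-0.72) or larvae replicate 3 (-0.71) left out. lin-42, the Period homologue that oscillates with the molts, was 2.73-fold higher, at 157, 169.9, 346 and 239.9 CPM in embryos and 1115, 272, 627 and 483 CPM in larvae, with overlapping stages. In the vulva and gonad list 18 rose and 23 fell of 45 tested. The list's share of higher calls was near the 36.9% of all genes tested, and its share of lower calls was above their 37.2%. let-23, the receptor of the vulval inductive signal, rose 2.64-fold, and its ligand lin-3 was at 15.7 ± 2.98 CPM in embryos and 12.13 ± 3.70 CPM in larvae (SD, n = 4; adjusted p = 0.202). lin-12, a Notch receptor, fell by 2.89-fold and its ligand lag-2 by 1.94-fold. mom-2, the Wnt of early blastomeres, fell by 31-fold.

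Of the vitellogenin, sperm and adult collagen list, 5 of 39 genes were tested and none was called by edgeR, with 0 at an unadjusted p under 0.05 and 0 called by DESeq2. vit-2, a yolk protein gene of the adult gut, was at 0.463, 81.2, 0.279 and 4.77 CPM in embryos and 29.3, 0.1, 9.57 and 1.63 CPM in larvae (adjusted p = 0.512), and vit-6 at 0.439, 100.3, 0.892 and 7.15 CPM and 44.7, 0.500, 11.1 and 2.88 CPM (adjusted p = 0.583). Embryo replicate 2 and larvae replicate 1 were the highest library of each stage, and their part in the results above is given by leaving both out, in the closing section.

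Families were also scanned by name. Of 137 name families with at least 10 tested genes, tbx, fbxb, sdz and fbxc had the lowest medians (-7.56, -7.36, -6.62 and -5.60, or -6.31, -6.55, -6.13 and -4.2 with members at 0 in larvae set to their bound), and spig, srlf, fipr and asp the highest (5.27, 5.04, 4.77 and 3.97). Every tested member fell in the families tbx, fbxb, taf and rpb, and every tested member rose in flp, alh (aldehyde dehydrogenases), pho and fipr. Among tested genes, 5 of 15 tbx genes had no count in larvae. At most 3 counts in each larvae library were held by 79 of 100 fbxb genes. Such genes passed the filter only through their embryo counts and could be called only lower. Globin-like glb genes rose in 28 of 31 cases, bestrophin channels of the best family in 13 of 16 and nssp genes in 58 of 82.

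**Figure D5:**
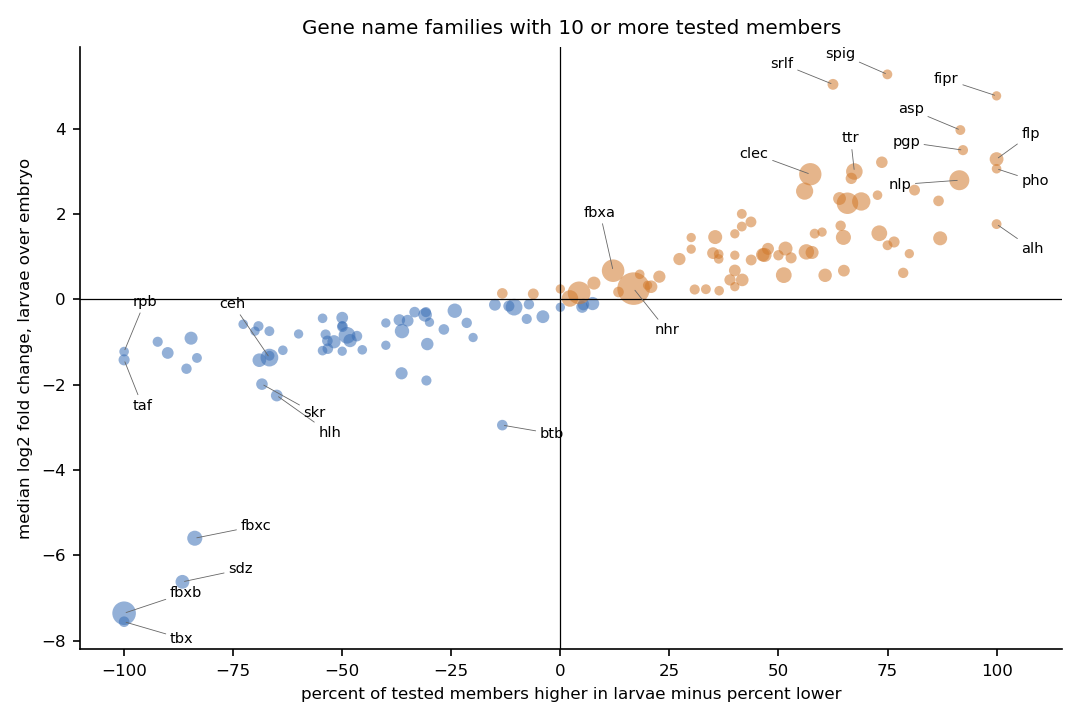
Each point is a name family with at least 10 tested genes, with the median log2 fold change of its tested members against the percent called higher minus the percent called lower, and point size for the number tested. The families tbx, fbxb, sdz and fbxc lie at the lower left, and fipr, asp, pho and flp at the upper right.

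Over the whole table, leaving aside collagens, histones and ribosomal proteins as named by their families and keeping genes with a mean of at least 10 CPM in the higher stage, the greatest increases included rol-6 and dpy-13, cuticle collagens under other names (9.47 ± 0.48 and 8.84 ± 0.37 on the log2 scale (SE)), far-8, lys-7, fipr-1 and the pharyngeal gland genes phat-7 and phat-8 (9.24 ± 0.38 and 8.81 ± 0.30). The highest of all was C50F7.5, known by its sequence name, at 0.341, 0.405, 0.167 and 0.180 CPM in embryos and 361, 217, 421 and 254 CPM in larvae. At the other end, dsl-6, a Notch ligand relative, had 1640, 918, 559 and 908 counts in embryos and 1, 0, 0 and 0 in larvae. Of the 15 named at that end, 5 were fbxb genes, and T09D3.3 and T28A11.22 were among those known by sequence name only. Genes with a symbol were called higher in 3185 and lower in 3154 of 8428 tested cases, and genes with a sequence name in 1819 and 1900 of 5143.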

How the data were processed

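The deposited counts are whole reads per gene, which the authors obtained by aligning stranded, oligo(dT)-selected single-end reads to WS220 with Tophat and counting them with HTSeq, according to the methods of the study. The submitters' processing notes name HTSeq 0.6.1p1, Cufflinks 2.2.0 and CASAVA 1.8. The deposited TPM values were computed by the authors as abundance per length and depth. Another 14 columns of the TPM table belong to no labelled sample and were not used, and neither were the authors' DESeq2 tables of fold changes and p-values between strains.

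Here the 5 classes of reads assigned to no gene were left out (reads in no gene were 3.26% to 6.06%). Gene names were matched by RefSeq locus tag for 19879 of 20389 genes. The stage effect was tested by quasi-likelihood in edgeR 4.0.16 (limma 3.58.1, R 4.3.3) on all 8 libraries, with TMM factors, filterByExpr and Benjamini-Hochberg adjustment at 0.05, and the code was tested on simulated data. DESeq2 1.42.0 was an alternative. Lists are described by counts and medians of tested members, with no test per list. The members and lists were chosen with earlier results of these data known. Genes named were chosen standard members of each list, the 2 called members with the greatest change in each direction per list, and the 15 greatest changes in each direction over the table at a mean of at least 10 CPM. A gene at 0 in a stage was given a bound against 3 counts per library. Bounds cover counting error only, since reads carried no molecular identifiers. TMM factors, filters, a tested fold change of 2, the threshold, a replicate block, DESeq2, library totals, TPM shares and each library left out were the alternatives tried. Figures were drawn with matplotlib 3.10.9 (Python 3.11.15).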

Additional observations from a re-analysis of the deposited data

Results flagged for a closer look

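In 417 groups of 4 libraries (the share of counts of each list, and the CPM of standard list members, per stage), 31 had a library farther from the others than Dixon's 95% limit, where chance gives about 1 in 20, or 21. Embryo replicate 1 was the library in 9 of them and larvae replicate 1 in 7.

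Embryo replicate 1 was lowest for pos-1 (256 CPM), prg-1 (50.1 CPM), mes-2 (33.3 CPM) and ctl-2 (94.8 CPM). It was highest for unc-54 (1493 CPM), myo-1 (224 CPM) and cpr-4 (11.4 CPM), for potassium and degenerin channels (0.108% of counts) and for chemoreceptors (0.02003%). The maternal gene is low, and 2 myosin genes high, in the same library.

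Larvae replicate 1 was highest for molting genes as a list (2.27% of counts, against 0.727% to 0.989% in the others), nas-37 (181 CPM), ptr-4 (509.9 CPM), wrt-2 (388 CPM), antioxidant genes (0.320%) and pes-1 (0.429 CPM), and lowest for emb-9 (1907 CPM).

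Embryo replicate 3 was highest for hbl-1 (1741 CPM), lin-39 (72.4 CPM), unc-86 (77.1 CPM), ajm-1 (1058 CPM) and egl-1 (15.1 CPM). Embryo replicate 2 was highest for the yolk and sperm list (0.0258% of counts), vit-2 (81.2 CPM), vit-6 (100.3 CPM) and tbx-35 (0.811 CPM). Larvae replicate 2 was lowest for tba-1 (685 CPM) and tbb-2 (1629 CPM) and highest for hsp-4 (247 CPM), larvae replicate 3 was lowest for mitochondrial ribosomal genes (0.231%), and larvae replicate 4 was highest for act-5 (3175 CPM) and asp-1 (12572 CPM).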

How the results depend on the processing

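The 5004 higher and 5054 lower genes became 3174 and 2739 when a fold change above 2 was tested, 5839 and 5652 with no filter beyond 1 count, 4965 and 5132 with DESeq2, 4361 and 4407 at an adjusted p under 0.01, and 4816 to 5180 and 4898 to 5243 with a library left out in turn. Testing a fold change above 2 left 21 of the 32 body-wall muscle genes higher, 18 of the 50 oxidative phosphorylation genes higher, 30 of the 55 cilia genes lower and 23 of the 63 splicing genes lower. Library totals in place of TMM factors gave 28 oxidative phosphorylation genes higher, turned the medians of the synaptic list to -0.11, the hedgehog-related list to -0.32, nuclear hormone receptors to -0.26 and the matrix list to -0.35, and turned bli-3 to -0.10, byn-1 to -0.008 and ran-3 to -0.001. With the same totals, molting genes were lower in 35 cases in place of 21, heterochronic genes in 14 in place of 9, and heat shock genes higher in 12 in place of 21. In 32 of the 56 lists the count of calls in a direction moved by over 1.5 times, and for lower calls this took body-wall muscle from 6 to 13, digestion from 2 to 7, lipid synthesis and storage from 4 to 14 and ligand-gated channels from 10 to 21. Also under totals, 10 of the genes named by rule gained a call (elt-2, snb-1, tbb-2, rec-8, hsp-4, hsp-16.2, lin-3, lin-14, unc-29 and wrt-2, each lower) and 12 lost theirs, beside the 3 that turned.

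The median of the yolk, sperm and adult collagen list, -0.90, turned to 0.56 with no filter and to 0.76 without both libraries rich in vitellogenin counts, an alternative chosen after seeing the data, and ranged from -2.53 to 2.17 with a library left out, where its ratio of shares ranged from 0.180 to 2.53. The cause was not tested. Without both libraries 4840 genes were higher and 4978 lower, ptr-4 was called lower at -0.77, as were noah-1 (-1.09) and wrt-2 (-1.54), fib-1 was called higher (0.56), and 8 named genes lost their call (bli-3, cox-4, lag-2, mrpl-40, mrpl-48, prg-1, rpt-1 and vha-8). Leaving out each library gave ptr-4 log2 fold changes from -0.74 to 0.38, and of 358 called genes with values by library, 44 had a fold change that moved by over 1.5 times. Shares of TPM in place of counts took larvae to embryo ratios from above 1 to below 1 for the vacuolar ATPase (0.814), mitochondrial ribosomal (0.769) and C-type lectin (0.698) lists. So they did for the synaptic (1.05 to 0.926) and ligand-gated channel (1.18 to 0.934) lists. The proteasome ratio was below 1 by counts (0.964) and by TPM (0.769). In 17 lists the ratio moved by over 1.5 times, among them chromatin (0.202 by counts and 0.103 by TPM), mitosis (0.160 and 0.0999), oxidative phosphorylation (1.76 and 1.14), pharynx (1.57 and 1.01) and molting (0.692 and 0.461). Replicate numbers did not pair the libraries (correlations of deviations -0.146, -0.194, 0.0747 and -0.0699), and with a replicate block 4806 genes were higher and 4962 lower and the yolk list's median was 0.38. The block gave wrt-2 a lower call (-0.996) and ended those of bli-3 and mrpl-48. DESeq2 put all 57 counts of list members within 1.5 times. The planned search for promoter motifs was not run. Genes of few counts are limited by depth, since 3 counts correspond to 0.0731 to 0.257 CPM.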
